A study of Mus musculus with 4 samples.

Results

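Bile acids made in the liver are taken back from the gut lumen by the epithelium of the ileum, and 8 genes of that route were followed here in small-intestinal organoids exposed to an agonist of the liver X receptors (LXR). The genes are Slc10a2, Fabp6, Slc51a, Slc51b, Abcc3, Nr1h4, Fgf15 and Cyp27a1. They were listed by name, with no threshold on measured values, and are 8 of the 30284 genes with a summed count. All 8 passed the filter on low counts and were among the 13602 genes tested. Organoids are epithelial cultures grown in Matrigel, here from small-intestinal crypts of 2 male C57BL/6J mice labelled as 9 weeks old. Crypts of each mouse were divided between 2 µM GW3965, a synthetic LXR agonist, and the vehicle DMSO, and RNA was taken after 6 h. Each treatment thus has 2 libraries, 1 per mouse, and no allele or genotype differs between them. The sources used here give neither the length of gut from which the crypts came nor the bile acid content of the medium.

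In the intestine, bile acids enter the enterocyte through the apical sodium-dependent transporter encoded by Slc10a2, bind the cytosolic carrier encoded by Fabp6, and leave across the basolateral membrane through a heterodimer of the products of Slc51a and Slc51b, with Abcc3 as a further basolateral exporter. The farnesoid X receptor FXR, encoded by Nr1h4, is a nuclear receptor for bile acids. It is known to raise Slc51a, Slc51b, Fabp6 and the hormone gene Fgf15, whose product represses bile acid synthesis in the liver. Cyp27a1 encodes the mitochondrial sterol 27-hydroxylase, which opens the alternative route of bile acid synthesis and makes 27-hydroxycholesterol, a ligand of LXR.

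Libraries held 16572359 to 19486547 estimated counts. Mitochondrial transcripts took 14.01% of the gene counts in the GW3965 library of mouse 1 (95% Wilson interval 13.9952 to 14.0288%) and 7.60 to 9.43% in the other 3 libraries, so this GW3965 library stood apart and results that rest on it are given with and without it. Wilson intervals cover counting error only. Epithelial markers (Epcam, Cdh1, Krt8, Krt18 and Vil1) summed to 17054 and 25182 CPM (counts relative to the TMM-scaled library size) with GW3965 and to 23089 and 23646 with DMSO. All 5 had a log2 fold change under 0 and none was called. In both mice 1 of the 5 was lower with GW3965, against 17.2% of all genes. Their median was -0.45 within mouse 1 and 0.11 within mouse 2. The hepatocyte list summed to 1.94 to 3.39 CPM, with Cyp7a1 and Fgb at 0 counts in every library. The treatment check was clear. Abca1, an LXR-induced sterol exporter, had 42.8 and 60.4 CPM with GW3965 against 0.462 and 1.75 CPM with DMSO (adjusted p = 0.00134, from the quasi-likelihood test of edgeR, adjusted by Benjamini-Hochberg across the 13602 genes). Where nothing in the labels separates cultures beyond the mouse, p-values measure the spread between these 4 libraries.

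Of the bile acid genes, none of the 8 passed an adjusted p of 0.05 (edgeR), none had an unadjusted p under 0.05, and DESeq2 and limma-voom also called none, while over all genes 8 of 13602 (0.0588%) passed the adjusted threshold and 1.05% had an unadjusted p under 0.05. Every member had a fitted log2 fold change of GW3965 over DMSO above 0, against 50% of all genes, but 3 of the 8 (Slc51a, Slc51b and Nr1h4) were higher with GW3965 in both mice, against 16.3% of all genes. The median log2 fold change of the 8 was 0.16, against 0.00032 over all genes tested. Without the GW3965 library of mouse 1, 5 of the 8 were above 0 and the median was 0.063. Without the DMSO library of mouse 1, 5 were also above 0 (median 0.022), and without either library of mouse 2, 7 were. Within mouse 1 the median of the 8 was 0.52, and within mouse 2 it was -0.05. Both GW3965 libraries lay above both DMSO libraries for 2 members, Slc51a and Slc51b, a pattern found in 9.28% of all genes. With so few members these shares are descriptions. In bulk RNA, fewer cells of a type and less RNA per cell cannot be told apart.

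**Figure D1:**
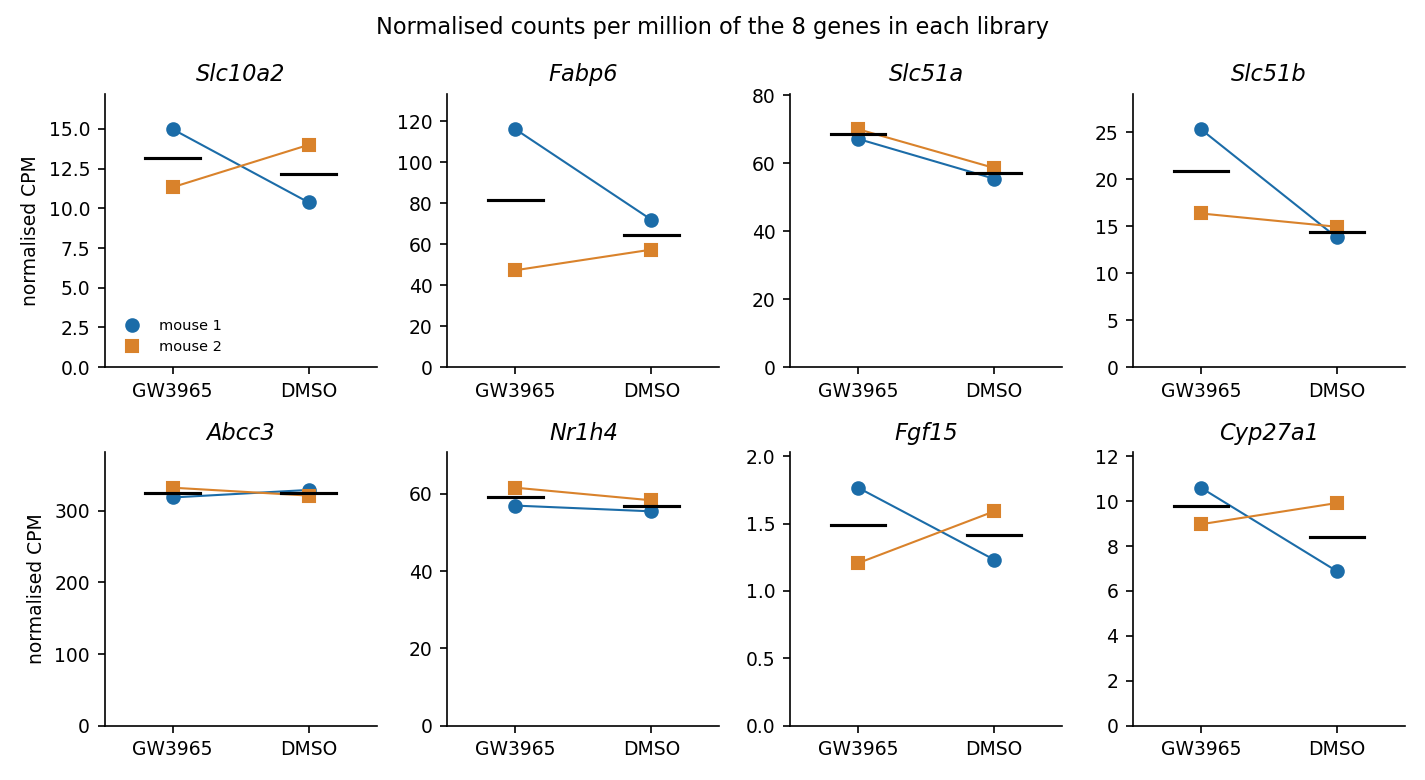
Normalised CPM (y axes, from 0) of the 8 genes in the GW3965 and DMSO cultures (x axes). Points are libraries, lines join the cultures of 1 mouse and black bars are means of 2 libraries. The lines of both mice slope the same way for Slc51a, Slc51b and Nr1h4 and slope opposite ways for the others.

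Levels were compared between genes as TPM, the share of all transcripts in a library corrected for transcript length. Fabp6 was the most abundant member, with 353.9 and 170.8 TPM with GW3965 and 259.9 and 195.9 TPM with DMSO. Abcc3 came next with 78.6 and 92.3 TPM with GW3965 against 82.4 and 83.3 TPM with DMSO. Slc51b ranged from 48.5 to 75.0 TPM over the 4 libraries, Slc51a from 42.3 to 53.4 TPM and Nr1h4 from 28.9 to 37.1 TPM. The ranges of Slc51b and Slc51a overlapped, so their order is not fixed. Slc10a2 (7.77 to 9.91 TPM) and Cyp27a1 (5.78 to 8.95 TPM) also overlapped, and Fgf15 was lowest, at 0.803 to 1.00 TPM. By mean TPM, Fabp6 stood at percentile 97.5 and Fgf15 at percentile 42.4 of the 21016 genes with any signal. The carrier of the imported bile acid was thus listed at 19.8 to 37.5 times the TPM of the importer Slc10a2 in each library. For Slc10a2, Slc51a and Slc51b the deposited transcript models (1629, 1600 and 488 bases) are shorter than those of the GENCODE M21 annotation (4152, 2618 and 709 bases), and reads from the missing bases could not be counted.

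**Figure D2:**
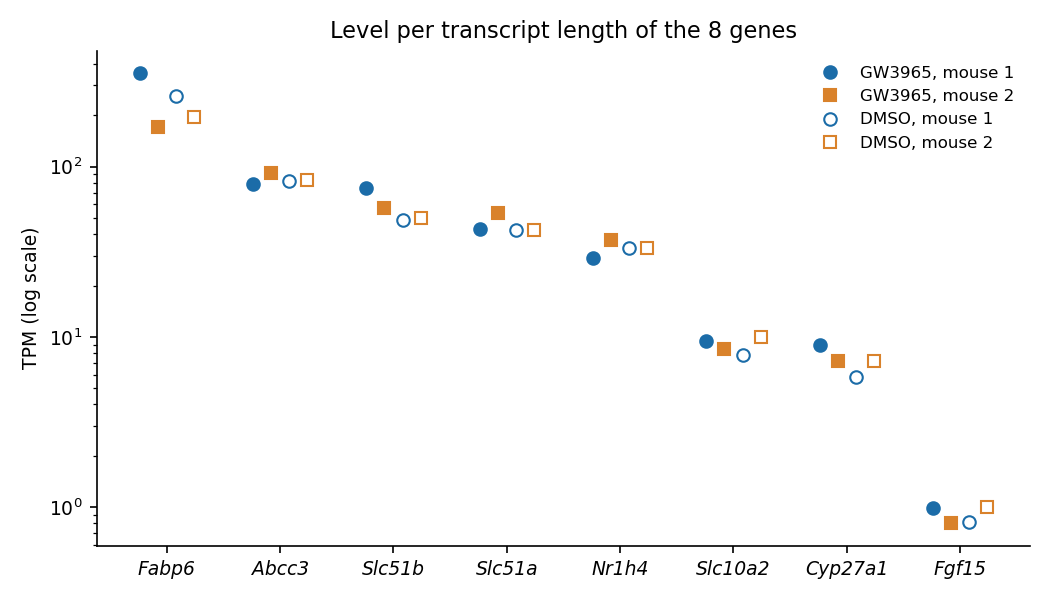
TPM of the 8 genes in each library on a log axis, ordered by mean. Filled symbols are GW3965 and open symbols DMSO cultures, circles mouse 1 and squares mouse 2. Fabp6 lies above 170 TPM in all 4 libraries and Fgf15 lies near 1 TPM.

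The importer gene Slc10a2 (chromosome 8, 5083219 to 5105351, minus strand, mm10) had 246 and 216 estimated counts with GW3965 in mouse 1 and mouse 2, and 202 and 264 with DMSO. Scaled, these were 14.98 and 11.3 CPM with GW3965 against 10.4 and 14.0 CPM with DMSO. The groups overlapped, since the GW3965 library was the higher of its mouse in mouse 1 and the lower in mouse 2. The fitted log2 fold change was 0.11 ± 0.25 (standard error), with a 95% interval of -0.44 to 0.66. Within mouse 1 the log2 difference was 0.53 and within mouse 2 it was -0.30.

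Fabp6, the ileal bile acid carrier and a direct target of FXR in textbook accounts, lies on chromosome 11 (43596049 to 43601540, minus strand). The promoter is shown because it holds letters like the FXR element, an inverted repeat of AGGTCA with a spacer of 1 base. The 250 bases before its RefSeq start site (GRCm38.p6, chr11:43601563-43601812, minus strand, 5′ to 3′) hold 2 matches, in capitals, to AGGTCA and TGACCT separated by 1 base, with up to 2 mismatches, at -222 to -210 and at -142 to -130 from the start.
Fabp6 promoter: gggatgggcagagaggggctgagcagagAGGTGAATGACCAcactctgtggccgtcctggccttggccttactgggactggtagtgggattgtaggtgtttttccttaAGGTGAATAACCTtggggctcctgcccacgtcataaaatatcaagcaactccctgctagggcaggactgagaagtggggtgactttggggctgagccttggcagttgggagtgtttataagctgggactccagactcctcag
Such a match on either strand occurred in 0.959% of 32851 RefSeq promoter windows of this length, and in 1 of the 6 member promoters in the RefSeq table. A match describes letters and not binding. A further motif, of the intestinal factor HNF1 (GTTAAT and ATTAAC separated by 1 base), matched the promoters of Slc10a2 (1 mismatch, -224 to -212) and Nr1h4 (2 mismatches, -40 to -28), against 1.24% of windows.

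Fabp6 had 1905 and 901 estimated counts with GW3965 and 1400 and 1081 with DMSO. Normalised, the GW3965 libraries were at 116 and 47.3 CPM and the DMSO libraries at 71.9 and 57.3 CPM. The highest and the lowest of the 4 values both belonged to GW3965, so the treatment groups overlapped fully. The log2 fold change was 0.34 ± 0.35 (interval -0.44 to 1.12), with 0.69 within mouse 1 and -0.28 within mouse 2. Leaving out the GW3965 library of mouse 1 turned it to -0.45, and leaving out the GW3965 library of mouse 2 gave 0.84. The direction of Fabp6 therefore rested on which mouse was read.

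Fabp6 was also compared between the mice. With treatment as a covariate, Fabp6 was lower in mouse 2 than in mouse 1 by a log2 difference of -0.81 ± 0.25 (unadjusted p = 0.00117, adjusted p = 0.131, edgeR). The difference was -1.30 within the GW3965 cultures and -0.33 within the DMSO cultures, so without the GW3965 library of mouse 1 the value left is the DMSO one, with no test. It did not pass, and none of the 8 genes did, against 0.684% of all genes called in this comparison, and Fabp6 was the 1 member with an unadjusted p under 0.05, against 5.01% of all genes. That fit has 1 residual degree of freedom and takes each gene's variance from genes of similar level. Among markers of gut region, Lct, the lactase gene of the proximal small intestine, had 36.5 and 29.9 CPM in mouse 2 (GW3965 and DMSO) against 9.38 and 10.2 CPM in mouse 1 (log2 difference 1.75 ± 0.24, adjusted p = 2.74e-10). Fabp1, a fatty acid carrier listed with the proximal markers, had the pattern most like Fabp6 over the 4 libraries among 85 listed genes (distance 0.324 on the log2 scale), with 431 and 425 CPM in mouse 2 against 804 and 629 CPM in mouse 1. Of the 2 distal markers outside the 8 genes, Cubn was higher in mouse 2, with 5.19 and 4.67 CPM against 2.13 and 1.75 CPM in mouse 1 (adjusted p = 0.0644, edgeR). The other, Clec2h, had 67.4 and 81.3 CPM in mouse 2 against 79.1 and 61.7 CPM in mouse 1 (log2 difference 0.08 ± 0.25). Of the 6 proximal markers 3 were higher and 3 lower in mouse 2, and without Fabp1 the list summed to 495 and 405 CPM in mouse 2 against 321 and 452 CPM in mouse 1. Markers of cell types moved between the mice as well. All 4 Paneth cell markers were lower in mouse 2 and 1 was called, the protease gene Mmp7, with 40.4 and 43.3 CPM in mouse 2 against 109 and 82.7 CPM in mouse 1 (log2 difference -1.18 ± 0.25, adjusted p = 0.000507, edgeR). Of 9 enterocyte markers, 8 were higher in mouse 2 and none was called (median log2 difference 0.63). Of 6 leukocyte markers, 5 were lower in mouse 2 and none was called. The part of gut region and of cell makeup in the Fabp6 difference was not tested.

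The basolateral exporter is formed by the products of Slc51a (chromosome 16, 32474504 to 32487879, minus strand) and Slc51b (chromosome 9, 65412714 to 65422955, minus strand), each of which needs the other at the membrane. Their promoters are shown because these were the members whose treatment groups did not overlap. In the 250 bases before the RefSeq starts (GRCm38.p6, chr16:32487880-32488129 and chr9:65422774-65423023, both minus strand) no match to the FXR-type repeat with up to 2 mismatches was found. The Slc51b window from 65422774 to 65422955 lies within the gene as annotated by GENCODE M21, and only the rest of it lies upstream of that gene. Capitals in Slc51b mark its match, with 2 mismatches, to the LXR-type direct repeat (AGGTCA, 4 bases, AGGTCA), a pattern found in 2.57% of promoter windows on either strand.
Slc51a promoter: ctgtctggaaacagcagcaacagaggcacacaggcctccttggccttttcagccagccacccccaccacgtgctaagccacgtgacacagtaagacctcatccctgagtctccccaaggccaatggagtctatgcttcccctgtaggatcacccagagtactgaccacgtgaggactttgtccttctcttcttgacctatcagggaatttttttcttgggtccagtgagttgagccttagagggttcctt
Slc51b promoter: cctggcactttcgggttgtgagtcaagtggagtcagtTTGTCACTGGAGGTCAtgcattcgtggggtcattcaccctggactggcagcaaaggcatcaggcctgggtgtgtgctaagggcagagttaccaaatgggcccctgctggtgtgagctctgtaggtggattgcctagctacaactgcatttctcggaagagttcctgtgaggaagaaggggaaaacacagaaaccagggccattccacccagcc

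Slc51a had 1102 and 1334 estimated counts with GW3965 and 1079 and 1105 with DMSO, which is 67.1 and 70.0 CPM with GW3965 against 55.4 and 58.6 CPM with DMSO. Both GW3965 libraries were above both DMSO libraries, and the log2 differences within mouse 1 (0.28) and mouse 2 (0.26) were alike. The fit gave 0.27 ± 0.18, a fold of 1.203 with a 95% interval of 0.912 to 1.59 (unadjusted p = 0.167, adjusted p = 0.99986, edgeR). Leave-one-out values ran from 0.23 to 0.30. In TPM, which are not scaled between libraries, the GW3965 libraries were at 43.2 and 53.4 and the DMSO libraries at 42.3 and 42.3, so the mouse 1 difference was small on that scale.

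Slc51b had 416 and 312 estimated counts with GW3965 and 269 and 282 with DMSO. This came to 25.3 and 16.4 CPM with GW3965 against 13.8 and 14.95 CPM with DMSO, and again the groups did not overlap. It had the smallest p of the 8, with a log2 fold change of 0.53 ± 0.24, a fold of 1.45 (interval 0.997 to 2.10, unadjusted p = 0.0514, adjusted p = 0.99986, edgeR). With the mouse as a block the unadjusted p was 0.0361 and the adjusted p 0.99988 (edgeR), against 1.7% of all genes with an unadjusted p under 0.05 in that fit. The blocked fit has 1 residual degree of freedom and takes each gene's variance from genes of similar level, so its p does not measure the spread of Slc51b itself. The difference was 0.88 within mouse 1 and 0.13 within mouse 2, and 0.19 remained without the GW3965 library of mouse 1. The TPM ratio of Slc51b to Slc51a was 1.74 and 1.08 with GW3965 and 1.146 and 1.17 with DMSO, and the GW3965 library of mouse 1 stood above the other 3.

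That same library was the highest of the 4 for 4 of 6 leukocyte markers, 3 of 4 Paneth cell markers and 2 of 9 enterocyte markers. All 6 leukocyte markers (Ptprc, Cd3e, Cd8a, Cd79a, Itgax and Lyz2) had log2 fold changes above 0, against 50% of all genes. In both mice 2 of the 6 were higher with GW3965, against 16.3% of all genes. Their median was 1.04 within mouse 1 and 0.006 within mouse 2. None of the 6 was at 0 counts over the 4 libraries and none was called. They summed to 47.9 and 27.3 CPM with GW3965 and 24.8 and 29.1 CPM with DMSO. Over the 4 libraries the listed genes most like Slc51b were Pecam1, an endothelial and leukocyte adhesion gene (distance 0.095 on the log2 scale), and Ptprc, the pan-leukocyte gene (0.229). The most like Slc51a was Abcc2, an organic anion exporter (0.106). Pecam1 had 25.8 and 17.0 CPM with GW3965 against 13.4 and 14.3 CPM with DMSO. The other 4 markers of mesenchyme and endothelium summed to 17.5 and 20.4 CPM with GW3965 and 17.5 and 20.4 CPM with DMSO. Most of that sum was Vim (15.5 and 18.9 CPM with GW3965, 16.6 and 18.7 CPM with DMSO), so it says little about the rest. Col1a1 was at 1.64 and 1.10 CPM with GW3965 and 0.616 and 1.33 CPM with DMSO. Of the 5 markers, 2 were highest in the GW3965 library of mouse 1. The part of these cells, and of the high mitochondrial share of that library, in the Slc51b value was not tested. Slc51a overlaps Pcyt1a and Slc51b overlaps Rasl12, each on the other strand, and no source used here says whether counting took strand into account. Pcyt1a had 119 and 208 CPM with GW3965 and 191 and 204 CPM with DMSO, and Rasl12 had 1.16 and 0.525 CPM with GW3965 and 0.565 and 0.742 CPM with DMSO.

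**Figure D3:**
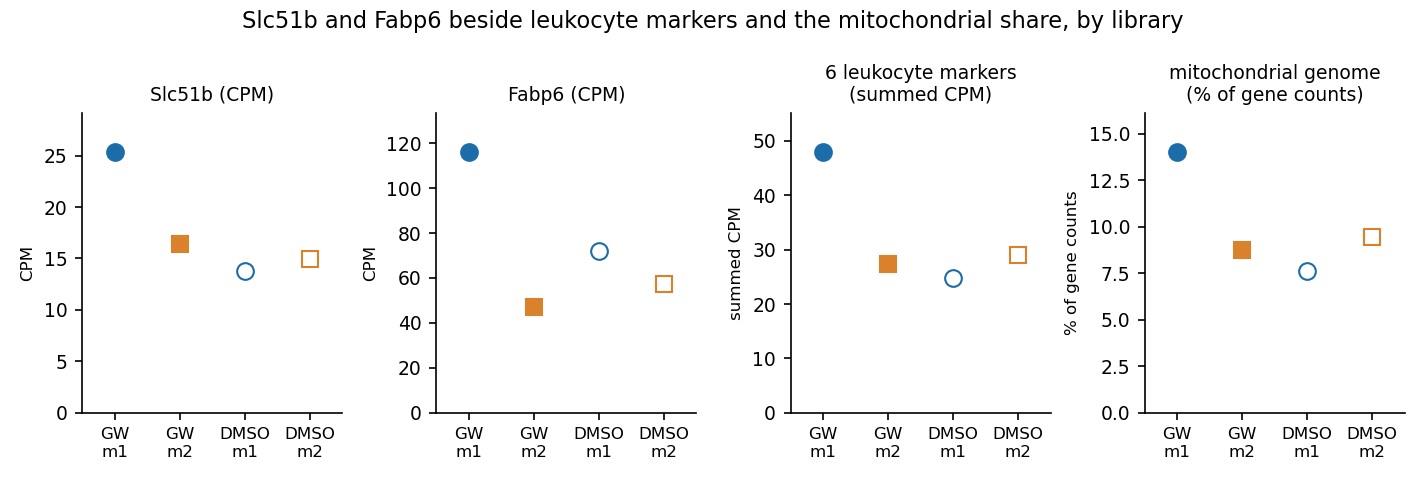
Slc51b and Fabp6 in CPM, the summed CPM of 6 leukocyte markers and the mitochondrial share of gene counts in percent, by library (m1, mouse 1, circles; m2, mouse 2, squares; filled, GW3965; open, DMSO). The GW3965 library of mouse 1 is the highest in each panel, with 47.9 summed CPM of leukocyte markers and 14.01% mitochondrial counts.

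Abcc3, a basolateral exporter of organic anions and conjugated bile acids on chromosome 11 (94343295 to 94392997, minus strand), was the steadiest member. It had 319 and 332 CPM with GW3965 and 329 and 321 CPM with DMSO, a spread of 1.04-fold from the lowest to the highest library. Its log2 fold change was 0.0011 ± 0.22 (interval -0.50 to 0.50). Differences were -0.05 within mouse 1 and 0.05 within mouse 2.

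Nr1h4 itself, the FXR gene on chromosome 10 (89454234 to 89533585, minus strand), was also within its spread. It had 57.0 and 61.6 CPM with GW3965 against 55.5 and 58.3 CPM with DMSO, and the groups overlapped. The log2 fold change was 0.06 ± 0.18 (interval -0.34 to 0.46), an interval that spans 0.790-fold to 1.37-fold. The listed genes most like it were the enterocyte phosphatase Alpi (distance 0.0951) and Abcc3 (0.101).

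FXR is made in isoforms that differ in their start exon and in a 12-base insert of 4 codons beside the DNA-binding domain, and isoforms lacking the insert are reported to act more strongly on Fabp6. The insert is shown because it is what separates the annotated transcripts in the coding region that they share. In Nr1h4-202 and Nr1h4-203 it lies at chr10:89483372-89483383 (mm10, minus strand), and Nr1h4-201 lacks it. Capitals mark the insert within the transcript sequence of GENCODE M21.
With insert: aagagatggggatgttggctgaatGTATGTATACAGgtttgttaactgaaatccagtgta
Without insert: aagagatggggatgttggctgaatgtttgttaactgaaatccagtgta

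Nr1h4-201, without the insert, took 58.1 and 67.7% of the Nr1h4 estimated counts with GW3965 and 66.6 and 70.9% with DMSO. Nr1h4-203, which starts upstream at 89533585 and carries the insert, took 24.5% (Wilson interval 21.8 to 27.4%) and 23.2% (20.9 to 25.8%) with GW3965 against 18.5% (16.3 to 20.95%) and 18.2% (16.01 to 20.6%) with DMSO. Its share was higher with GW3965 in each mouse. Nr1h4-202, which starts downstream at 89506658, took 17.4 and 9.12% with GW3965 and 14.9 and 10.9% with DMSO. In CPM, Nr1h4-203 had 13.5 and 14.8 with GW3965 against 10.4 and 10.6 with DMSO (log2 fold change 0.43 ± 0.24, unadjusted p = 0.133, adjusted p = 0.99998, edgeR over 32357 transcripts), and it did not pass. Nr1h4-203 also lacks 139 bases at the 3′ end (chr10:89454234-89454372) that Nr1h4-201 and Nr1h4-202 carry. The part of that 3′ difference in its share was not tested. Reads of 50 bases that miss the differing exons are divided by the estimate of kallisto, an uncertainty that the intervals leave out.

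Abcc3 has 2 long coding transcripts that differ by 3 coding bases at the edge of exon 20 of 31 and by 3 bases at the 3′ end. Abcc3-201, the shorter, made up 20.4% (19.3 to 21.5%) and 26.9% (25.8 to 28.0%) of their summed estimated counts with GW3965 against 33.4% (32.3 to 34.6%) and 34.3% (33.1 to 35.5%) with DMSO. The share was lower with GW3965 in both mice, and no overlap was seen. On the CPM scale Abcc3-201 was at 61.0 and 90.0 with GW3965 against 110 and 108 with DMSO (log2 fold change -0.53 ± 0.25, unadjusted p = 0.0915, adjusted p = 0.99998, edgeR), which did not pass. The longer Abcc3-206 had 239 and 245 CPM with GW3965 against 219 and 206 CPM with DMSO. The estimate that divides these reads rests on 6 bases that differ between models of 4999 and 5005 bases. Of 17 transcripts of the 8 genes, 15 were tested and none passed in edgeR, at the adjusted threshold or at an unadjusted p under 0.05 (0% and 2.61% of all transcripts), while 5 lay above and 1 below with GW3965 in both libraries, against 13.4% and 12% of all transcripts.

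**Figure D4:**
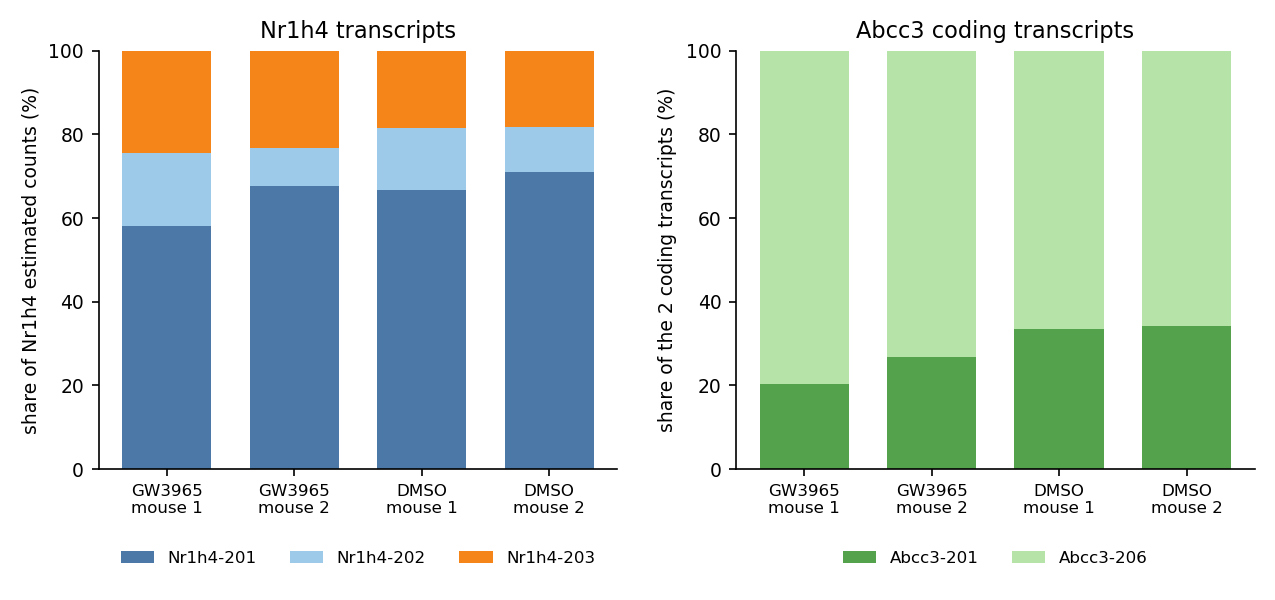
Shares in percent of the estimated counts taken by each Nr1h4 transcript (left) and by the 2 long coding Abcc3 transcripts (right), per library. Nr1h4-203 takes 23.2 to 24.5% with GW3965 and 18.2 to 18.5% with DMSO, and Abcc3-201 takes 20.4 to 26.9% with GW3965 and 33.4 to 34.3% with DMSO.

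Fgf15, the hormone by which the ileum signals to the liver, lies on chromosome 7 (144896531 to 144900953, plus strand) and was close to the lower limit of what was tested. It had 29 and 23 estimated counts with GW3965 and 24 and 30 with DMSO, or 1.77 and 1.21 CPM with GW3965 against 1.23 and 1.59 CPM with DMSO. Its log2 fold change of 0.07 ± 0.43 had the widest interval of the 8, from -0.90 to 1.04, which spans 0.535-fold to 2.06-fold. Like Slc10a2, to which its pattern was most similar (distance 0.12), it was higher with GW3965 in mouse 1 (0.52) and lower in mouse 2 (-0.40).

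Cyp27a1, the sterol 27-hydroxylase gene on chromosome 1 (74713574 to 74737892, plus strand), had 174 and 171 estimated counts with GW3965 and 134 and 187 with DMSO. In CPM these were 10.6 and 8.97 with GW3965 against 6.88 and 9.92 with DMSO. The groups overlapped, and the lowest library was the DMSO culture of mouse 1. The log2 fold change was 0.22 ± 0.26 (interval -0.37 to 0.81), with 0.62 within mouse 1 and -0.14 within mouse 2. The coding transcript Cyp27a1-201 held 75.0 and 88.5% of its counts with GW3965 and 86.5 and 91.0% with DMSO, and the rest was assigned to retained-intron transcripts. Cyp27a1-201 had a log2 fold change of 0.08 ± 0.34. The retained-intron Cyp27a1-203 had 0.73 ± 0.72, on 25 and 13 counts with GW3965 and 13 and 12 with DMSO, and neither passed.

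**Figure D5:**
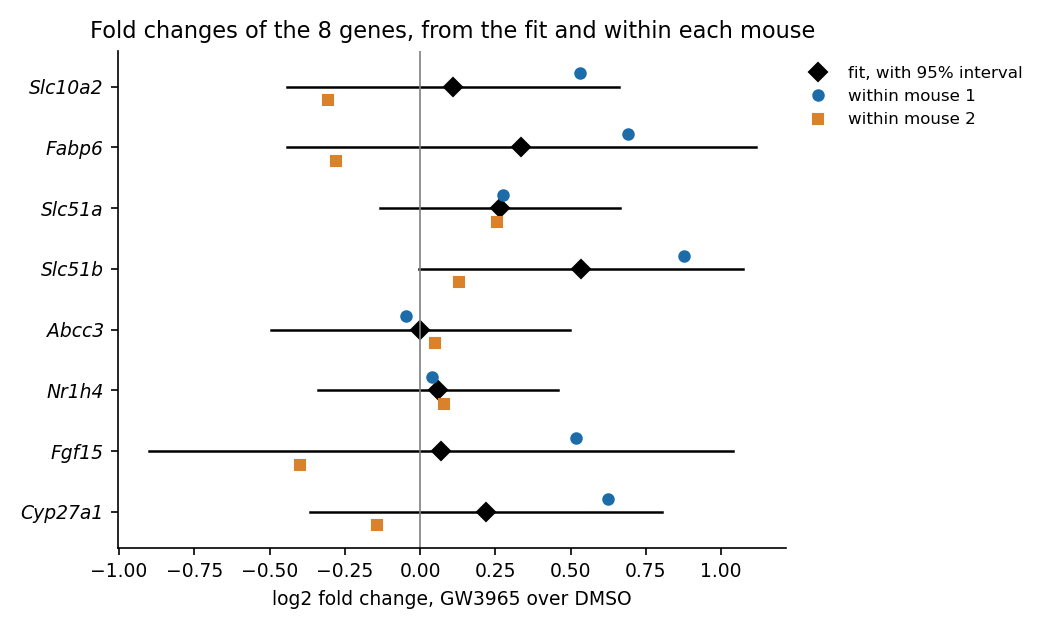
Log2 fold change of GW3965 over DMSO for each gene, from the fit of all 4 libraries (diamonds, with 95% intervals) and within mouse 1 (circles) and mouse 2 (squares). All 8 intervals include 0, and mouse 1 lies above 0 and mouse 2 below 0 for Slc10a2, Fabp6, Fgf15 and Cyp27a1.

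Other genes of the route were read from lists. Of 9 FXR partners and targets outside the 8 genes, 7 were tested and none passed (2 positive and 5 negative, median log2 fold change -0.08). Nr0b2, the FXR-induced corepressor SHP, had 1 and 0 counts with GW3965 and 0 and 0 with DMSO, at or under a floor of 3 counts per library (0.155 to 0.183 CPM). Those with the smallest p were Vdr, the vitamin D receptor (-0.25 ± 0.21), Mafg, a transcriptional repressor (0.29 ± 0.24), and Nr1i2, the xenobiotic receptor PXR (0.11 ± 0.19). Rxra, the partner with which FXR and LXR bind DNA, had 46.1 and 84.4 CPM with GW3965 and 71.3 and 69.8 CPM with DMSO.

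Of 17 genes of bile acid synthesis and side-chain cleavage, 9 were tested and none passed (4 positive, 5 negative, median -0.02). Cyp7a1, Cyp8b1, Cyp7b1 and Ch25h had 0 counts in all 4 libraries. Fdx1 and Fdxr, which pass electrons to Cyp27a1, had log2 fold changes of 0.03 ± 0.20 and -0.05 ± 0.30. The smallest p belonged to Slc27a2, an acyl-CoA synthetase of long and very long chains, with 15.2 and 10.4 CPM with GW3965 against 10.1 and 8.06 CPM with DMSO (0.50 ± 0.26, unadjusted p = 0.0863), which did not pass. Acot8 (0.18 ± 0.23) and Hsd3b7 (0.15 ± 0.22), 2 enzymes of bile acid formation, followed.

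Among 11 further transporters, 7 were tested and none passed (4 positive, 3 negative, median 0.19). Abcc2, an apical exporter of conjugates, had 413 and 397 CPM with GW3965 against 319 and 327 CPM with DMSO (0.33 ± 0.22). Abcb11, the canalicular bile salt pump of the liver, was at 1.71 and 1.84 CPM with GW3965 against 1.44 and 0.954 CPM with DMSO (0.56 ± 0.43). Slco3a1, an organic anion transporter, had -0.32 ± 0.26. In this list 3 genes had both GW3965 libraries above both DMSO libraries and 1 had both below, against 9.28% and 9.18% of all genes.

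Of 4 signalling receptors, 2 were tested and none passed. Fgfr4, the receptor of FGF15, had -0.07 ± 0.18 and S1pr2, a sphingosine phosphate receptor, had -0.11 ± 0.32, while the FGF15 coreceptor gene Klb was at 0.262 to 0.426 CPM. Among 9 transcription factors of the ileal programme, all 9 were tested, 8 were negative and none passed (median -0.17, with -0.49 within mouse 1 and 0.08 within mouse 2). Gata4, the repressor of ileal genes in proximal gut, had 212 and 321 CPM with GW3965 against 325 and 274 CPM with DMSO. The smallest p belonged to Onecut2 (0.47 ± 0.24), Maf, an activator of Slc10a2 in reports on mouse ileum (-0.41 ± 0.22), and Cdx2 (-0.24 ± 0.22).

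The authors' deposited table of log2 CPM holds 6 of the 8 genes, without Fgf15 and Cyp27a1. In the authors' deposited table Slc51b is listed at 4.57 and 4.32 with GW3965 and 4.004 and 4.18 with DMSO, and Slc51a at 6.23 and 6.22 with GW3965 and 6.01 and 6.04 with DMSO. Fabp6 is listed there at 6.56 and 6.05 with GW3965 and 6.10 and 6.40 with DMSO, and its difference of mouse 2 from mouse 1 is -0.10, against -0.81 in the normalised counts. Across 8463 genes held in both, the SD of that mouse difference was 0.0331 in the authors' deposited table and 0.265 in the normalised counts, so differences between mice are small in that table, and it was not used for comparing them.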

How the data were processed

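RNA of 4 organoid libraries was sequenced from poly-A selected, stranded libraries as single-end reads of 50 bp, per the labels' protocols. The extraction text of the labels speaks of colon, while the tissue label names small-intestinal organoids, which was followed. Per the submitters' processing notes kallisto (version not given) and mm10 were used. Deposited by the authors were estimated counts and TPM of each transcript, a rounded copy of these counts, and log2 CPM per gene symbol, per the file headers. The annotation release, use of strand and scaling of the log2 CPM appear in none of the sources used here.

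Of 88198 transcripts, 86119 matched GENCODE M21 (GRCm38), and estimated counts were summed per gene and rounded. The design foresaw this unit. Tests used edgeR 4.0.16 in R 4.3.3 (filterByExpr, TMM, quasi-likelihood F test, Benjamini-Hochberg adjusted p under 0.05), 2 libraries against 2 without a block (2 residual and 7.78 prior degrees of freedom), with DESeq2 1.42.0, limma 3.58.1 and other alternatives beside it. Errors of log2 fold changes are standard errors from the F statistic. Same-numbered libraries come from 1 mouse, per the labels, so a blocked fit was run (correlation of same-mouse deviations 0.0925). Between libraries, chi-square per degree of freedom was 10.5 to 77.6, so none was a copy. The code was tested on simulated counts. Promoters are RefSeq's (6 of 8 genes matched) and isoform sequences GENCODE's. All 8 members are named, with up to 3 genes of smallest p per list and a few others chosen after their values were seen. Members and lists were chosen with earlier results of these data known.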

Additional observations from a re-analysis of the deposited data

How the results depend on the processing

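No member passed the adjusted threshold under any of 14 alternatives to the treatment fit, none under 6 alternatives to the mouse fit, and no member transcript under 7. The count of all genes called was 8, and 20 with DESeq2, 14 without a filter on low counts, 48 with the mouse as a block, 20 with limma-voom, 14 with limma on the deposited TPM (an alternative chosen after seeing the data, log2 of TPM plus 0.5) and 0 with limma on the authors' deposited log2 CPM table, where 360 genes had an unadjusted p under 0.05. With 1 library left out it was 38 to 84. The blocked fit changed no member's call or direction.

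Of 126 recomputed fold changes of the members, 110 kept their direction and 16 reversed. Values with 1 library left out ran from -0.45 to 0.84 for Fabp6, -0.10 to 0.34 for Slc10a2, -0.22 to 0.32 for Fgf15, -0.018 to 0.50 for Cyp27a1 and -0.030 to 0.031 for Abcc3, and from 0.19 to 0.82 for Slc51b, which kept its sign. Those fits assume that the lone library varies like the other group. Within mouse 2 the reversed values were -0.28 for Fabp6, -0.30 for Slc10a2, -0.40 for Fgf15 and -0.14 for Cyp27a1, and within mouse 1 -0.047 for Abcc3. Abcc3 was also -0.011 without a filter on low counts, and on deposited TPM Nr1h4 was -0.026 and Fgf15 -0.014, where the median of all genes was -0.08. The cause was not tested. Leaving 1 library out of the mouse fit was not run, since no residual degrees of freedom remain, and the mouse difference of Fabp6 within the GW3965 (-1.30) and the DMSO cultures (-0.33) was added after seeing the data. Depth limits Fgf15 most, with 23 to 30 counts per library.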
